A study of Mus musculus with 12 samples.

Results

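The keratin-associated protein genes (Krtap genes) were read in whole ear skin of 5 mouse genotypes, with and without imiquimod (IMQ) cream. The family was taken as every gene whose name on the array starts with Krtap and which had a probe well above background, by the scanner software's own call, on at least 2 of the 12 arrays. The array carries 58 such probes for 55 genes out of 56605 probes, and 57 probes for 54 genes met the rule. Of these 54 genes, 53 were tested among 24080 genes in all. Krtap21-1 met the rule but was not tested, because its spot on the first IMQ Tlr7-/-Tlr9-/- array carried the scanner's outlier mark. By subfamily number, 39 tested genes were cysteine-rich and 13 glycine-tyrosine-rich, and Krtap16-3 was placed in neither class. Krtap13 was outside the rule, with log2 signals of 2.03 to 2.19 and no array above background. Just inside it were Krtap27-1, above background on 3 arrays, and Krtap24-1, above it on 6, and no gene of the family stood at 1 or 2 arrays.

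The 10 groups were IMQ-treated and untreated ear skin of Card14-/-, Tlr7-/-Tlr9-/-, Tlr7-/-, Tlr9-/- and WT mice, all labelled C57BL/6J. Treated ears were taken 4 h after 1 application of 62.5 mg of cream with 5% IMQ, and untreated ears received no cream, so that the cream itself has no control group. RNA of 6 to 8 mice was pooled for each group. IMQ Card14-/- and IMQ Tlr7-/-Tlr9-/- skin had 2 arrays each and every other group had 1. Nothing in the labels says that the repeat arrays came from separate pools. The p-values of comparisons between groups therefore measure only the spread between repeat arrays, which may be technical. Those of the average response and of the comparison by Tlr7 measure the spread between genotypes.

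Keratin-associated proteins form the matrix between the keratin filaments of the hair shaft, and they are made by the keratinizing cells of growing hair follicles. The cysteine-rich proteins bind the filaments through disulfide bonds, and the glycine-tyrosine-rich proteins are small and fill the space between filaments. The genes lie in clusters, and hair type and the phase of the hair cycle set how much of the family a skin sample holds. TLR7 is the endosomal receptor through which imiquimod acts, TLR9 senses unmethylated CpG DNA, and CARD14 is a keratinocyte scaffold protein upstream of NF-kB.

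Several probes of the family differ by few bases, and those of the genes on which the results turn are shown here with the stretch shared with a probe of another gene in capitals. All are written 5′ to 3′, with mm9 positions from the deposited files.
Krtap28-13, chr1:83057928-83057987, plus strand, no shared stretch: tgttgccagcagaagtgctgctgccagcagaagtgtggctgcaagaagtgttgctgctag
Krtap4-6, chr11:99526996-99527055, minus strand, 21 bases shared with Krtap4-13: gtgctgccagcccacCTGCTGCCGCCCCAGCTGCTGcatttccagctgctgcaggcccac
Krtap5-3, chr7:149387633-149387692, plus strand, 39 bases shared with Krtap5-4: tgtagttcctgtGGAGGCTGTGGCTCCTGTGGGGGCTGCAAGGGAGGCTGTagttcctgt
Krtap5-4, chr7:149489675-149489734, plus strand, 39 bases shared with Krtap5-3: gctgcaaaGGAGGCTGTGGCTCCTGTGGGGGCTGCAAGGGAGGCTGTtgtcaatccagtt
Krtap19-4, chr16:88885057-88885116, minus strand, 15 bases shared with Krtap19-5: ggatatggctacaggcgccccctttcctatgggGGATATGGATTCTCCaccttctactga
Krtap19-5, chr16:88896479-88896538, minus strand, 15 bases shared with Krtap19-4: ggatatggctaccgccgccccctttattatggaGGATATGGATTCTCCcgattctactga
Krtap16-3, chr16:88962906-88962965, minus strand, 25 bases shared with Krtap19-2: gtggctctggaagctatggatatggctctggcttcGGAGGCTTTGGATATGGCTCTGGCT
Krtap20-2, chr16:89206222-89206281, plus strand, 32 bases shared with a probe of Gm10061: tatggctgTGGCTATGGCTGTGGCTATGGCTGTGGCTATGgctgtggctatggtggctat
The repeated tgt and tgc triplets of the Krtap28-13, Krtap4-6 and Krtap5 probes are cysteine codons, and the ggc, gga and tat triplets of the Krtap19, Krtap16-3 and Krtap20-2 probes are glycine and tyrosine codons. A probe with a long shared stretch may read more than 1 transcript, so Krtap5-3 and Krtap5-4 are uncertain as separate genes. The capitals mark only the longest unbroken match. The Krtap19-4 and Krtap19-5 probes also match at most of their other positions, so they too are uncertain as separate genes.

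In the deposited scanner files between 60.1% and 65.7% of spots were well above background and none was saturated. The 75th percentile of signal was 527 to 779 on IMQ arrays and 1070 to 1236 on untreated arrays, and the arrays were quantile normalized before any comparison. The 4 IMQ arrays of Card14-/- and Tlr7-/-Tlr9-/- skin were on 1 slide and the other 8 arrays on another, so for these genotypes the response to IMQ and the slide cannot be told apart. The Tlr7 probe read 4.02 to 5.85 on arrays of the genotypes that lack Tlr7 and 7.36 to 8.12 on the others, and the Card14 probe read 9.63 to 9.89 in Card14-/- skin and 10.83 to 11.65 elsewhere. The Tlr9 probe read 10.95 to 11.39 on all 12 arrays, Tlr9-/- included, and therefore does not check that label. It is not known here whether it lies within the deleted part.

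The family varied far more than the median of all genes. A wide spread was not particular to the family, since the median of the inner root sheath genes, given below, also ranged widely over the 12 arrays. The SD over the 5 untreated arrays had a median of 1.32 log2 units over the 53 genes (0.22 to 2.00), against 0.148 over all genes, and the range over the 12 arrays had a median of 4.71 (0.77 to 9.08), against 0.878. Between repeat arrays the median SD was 0.0245 in IMQ Card14-/- skin and 0.106 in IMQ Tlr7-/-Tlr9-/- skin, where 11 or 12 of the genes were below background. For the 40 genes above background on both IMQ Tlr7-/-Tlr9-/- arrays the SD was 0.0524, close to the 0.0470 of all genes. The untreated pools, which no cream had touched, thus already differed from each other by more than the repeat arrays did. The median log2 signal of the 53 genes in untreated skin was 9.18 in Card14-/-, 8.28 in Tlr7-/-Tlr9-/-, 11.54 in Tlr7-/-, 9.97 in Tlr9-/- and 8.98 in WT. Untreated Tlr7-/- skin was the highest of the 5 in 51 genes, and untreated Tlr7-/-Tlr9-/- skin the lowest in 49. As each untreated group is 1 pool, these differences between genotypes have no replicate check. Shares of all genes were not counted for this order or for that of the 10 groups below.

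After IMQ the median was 12.09 and 12.06 on the Card14-/- arrays, 7.0 and 7.05 on the Tlr7-/-Tlr9-/- arrays, 7.56 in Tlr7-/-, 10.05 in Tlr9-/- and 10.87 in WT. IMQ Card14-/- skin was the highest of the 10 groups in 33 of the 53 genes and untreated Tlr7-/- skin in 16. The lowest group was IMQ Tlr7-/- skin in 21 genes, IMQ Tlr7-/-Tlr9-/- skin in 18 and untreated Tlr7-/-Tlr9-/- skin in 9. In whole skin, fewer cells that make these proteins and less RNA per cell cannot be told apart. The heat map of the 53 genes shows the same columns dark for nearly the whole family.

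**Figure D1:**
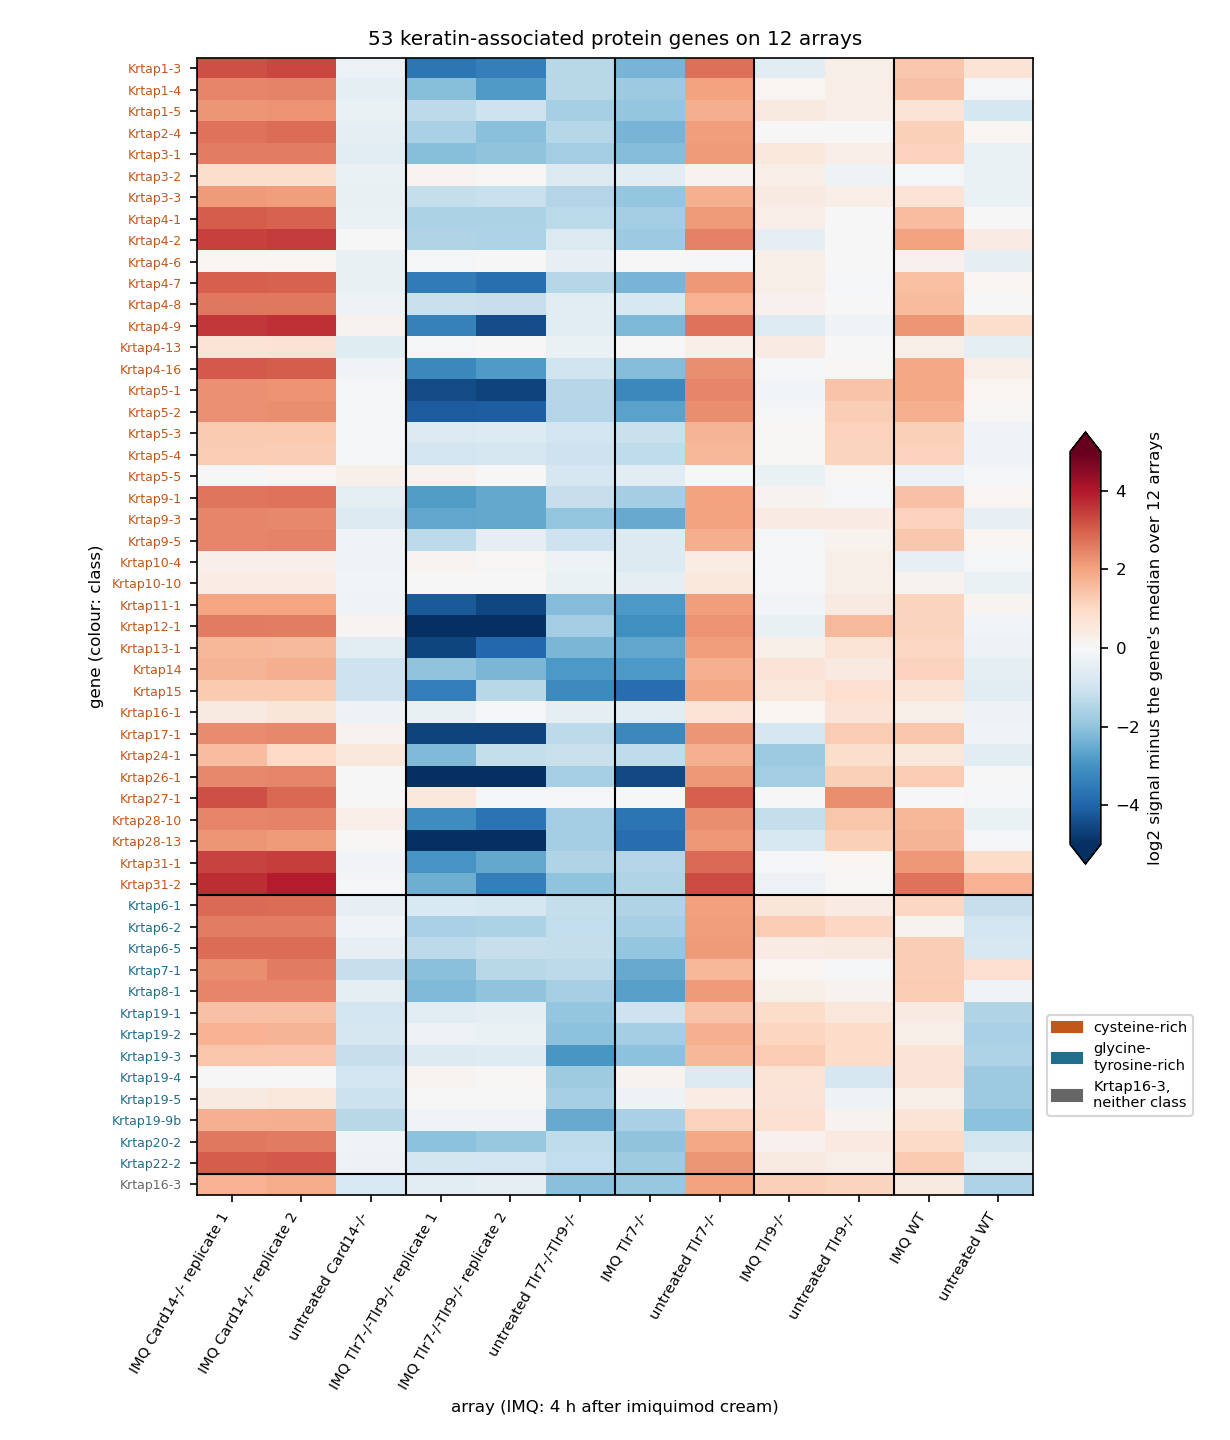
Log2 signal of each of the 53 tested genes on each of the 12 arrays minus that gene's median over the arrays, with cysteine-rich genes above glycine-tyrosine-rich genes and Krtap16-3 at the bottom. Red is above and blue below the gene's median, colours stop at 5 log2 units, and vertical lines part the genotypes. The IMQ Card14-/- and untreated Tlr7-/- columns are red, the IMQ Tlr7-/-Tlr9-/- and IMQ Tlr7-/- columns are blue, and Krtap4-6, Krtap5-5 and Krtap10-4 are pale throughout.

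The cysteine-rich genes of subfamilies 1 to 4, 9 and 11, whose human and sheep relatives are made mostly in the cortex of the hair shaft, and those of subfamily 31 followed this order, with a few flat members. Krtap11-1, the only gene of its subfamily, read 13.02 and 13.00 in IMQ Card14-/-, 6.84 and 6.50 in IMQ Tlr7-/-Tlr9-/-, 8.17 in IMQ Tlr7-/-, 10.91 in IMQ Tlr9-/- and 12.13 in IMQ WT skin. It read 10.86 in untreated Card14-/-, 8.87 in Tlr7-/-Tlr9-/-, 13.11 in Tlr7-/-, 11.51 in Tlr9-/- and 11.17 in WT skin. The IMQ value lay above the untreated one in Card14-/- and WT skin and below it in the other 3 genotypes. Krtap4-9 read 11.37 and 11.48 in IMQ Card14-/-, 4.47 and 3.41 in IMQ Tlr7-/-Tlr9-/-, 5.60 in IMQ Tlr7-/-, 7.20 in IMQ Tlr9-/- and 10.07 in IMQ WT skin. Its untreated values were 8.04 in Card14-/-, 7.31 in Tlr7-/-Tlr9-/-, 10.57 in Tlr7-/-, 7.67 in Tlr9-/- and 8.74 in WT skin. The repeat arrays of IMQ Tlr7-/-Tlr9-/- skin stand about 1 log2 unit apart here, and the lower of them was below background.

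Krtap1-5, the member of subfamily 1 with the highest mean, read 11.73 and 11.78 in IMQ Card14-/-, 8.23 and 8.49 in IMQ Tlr7-/-Tlr9-/-, 7.59 in IMQ Tlr7-/-, 9.96 in IMQ Tlr9-/- and 10.21 in IMQ WT skin. Without cream it read 9.18 in Card14-/-, 7.89 in Tlr7-/-Tlr9-/-, 11.36 in Tlr7-/-, 9.88 in Tlr9-/- and 8.66 in WT skin. In Tlr7-/-Tlr9-/- skin the untreated array was the lower one, unlike for Krtap11-1 and Krtap4-9. Krtap2-4 ranged from 4.73 in IMQ Tlr7-/- skin to 9.84 in IMQ Card14-/- skin, and Krtap9-3 from 7.49 in IMQ Tlr7-/-Tlr9-/- skin to 12.52 in IMQ Card14-/- skin. Krtap31-1 spanned 3.34 in IMQ Tlr7-/-Tlr9-/- to 9.78 in IMQ Card14-/- skin.

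Krtap4-6, the member of the largest subfamily with the highest mean, was nearly flat. It read 15.81 and 15.81 in IMQ Card14-/-, 15.61 and 15.68 in IMQ Tlr7-/-Tlr9-/-, 15.73 in IMQ Tlr7-/-, 16.005 in IMQ Tlr9-/- and 15.93 in IMQ WT skin, and 15.33 in untreated Card14-/-, 15.28 in Tlr7-/-Tlr9-/-, 15.64 in Tlr7-/-, 15.73 in Tlr9-/- and 15.24 in WT skin. The 2 sets of values overlap slightly. Krtap4-13, whose probe shares 21 bases with that of Krtap4-6, stayed between 13.41 and 14.72, and Krtap3-2 between 11.07 and 12.69. With Krtap5-5, Krtap10-4, Krtap10-10 and Krtap16-1 these made up the 7 genes whose range over the 12 arrays was under 2 log2 units.

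The cuticle is the outer layer of scales of the shaft, and subfamilies 5, 10, 12 and 17 are known from human and sheep hair as cuticle proteins. Krtap17-1, the only gene of its subfamily, was above background on every array. It read 12.29 and 12.33 in IMQ Card14-/-, 5.31 and 5.31 in IMQ Tlr7-/-Tlr9-/-, 6.70 in IMQ Tlr7-/-, 9.07 in IMQ Tlr9-/- and 11.32 in IMQ WT skin. Untreated skin gave 10.09 in Card14-/-, 8.62 in Tlr7-/-Tlr9-/-, 12.12 in Tlr7-/-, 11.20 in Tlr9-/- and 9.76 in WT. The IMQ arrays alone thus spread wider than the untreated arrays. Krtap12-1 read 10.33 and 10.31 in IMQ Card14-/- skin and 2.76 and 2.56, not well above background, in IMQ Tlr7-/-Tlr9-/- skin, with the other 8 arrays between 4.67 and 9.98.

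Krtap5-3 read 12.73 and 12.72 in IMQ Card14-/-, 10.67 and 10.73 in IMQ Tlr7-/-Tlr9-/-, 10.31 in IMQ Tlr7-/-, 11.48 in IMQ Tlr9-/- and 12.58 in IMQ WT skin. Its untreated values were 11.34 in Card14-/-, 10.47 in Tlr7-/-Tlr9-/-, 13.13 in Tlr7-/-, 12.55 in Tlr9-/- and 11.21 in WT skin. Within the subfamily Krtap5-1 varied more, from 5.68 in IMQ Tlr7-/-Tlr9-/- to 12.74 in untreated Tlr7-/- skin, and Krtap5-5 less, from 7.62 in untreated Tlr7-/-Tlr9-/- to 8.74 in untreated Card14-/- skin. Krtap10-4 was also nearly flat: 11.55 and 11.54 in IMQ Card14-/-, 11.41 and 11.36 in IMQ Tlr7-/-Tlr9-/-, 10.61 in IMQ Tlr7-/-, 11.21 in IMQ Tlr9-/- and 10.87 in IMQ WT skin, against 11.03 to 11.65 in untreated skin. Both subfamily 10 genes and Krtap12-1 lie on chromosome 10, so that flat and strongly varying members share a cluster.

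The 2 widest ranges over the 12 arrays were those of cysteine-rich genes outside the large clusters of chromosomes 7 and 11. Krtap28-13, on chromosome 1, read 12.11 and 12.06 in IMQ Card14-/-, 3.34 and 3.21 in IMQ Tlr7-/-Tlr9-/-, 6.12 in IMQ Tlr7-/-, 9.10 in IMQ Tlr9-/- and 11.62 in IMQ WT skin. It read 9.99 in untreated Card14-/-, 8.21 in Tlr7-/-Tlr9-/-, 12.10 in Tlr7-/-, 11.11 in Tlr9-/- and 9.85 in WT skin. Both repeat arrays of IMQ Tlr7-/-Tlr9-/- skin were below background, so that this gene has only a bound there. Krtap26-1, on chromosome 16, read 11.01 and 11.04 in IMQ Card14-/- skin, 1.96 and 2.93, below background, in IMQ Tlr7-/-Tlr9-/- skin, 4.10, below background, in IMQ Tlr7-/- skin, 6.86 in IMQ Tlr9-/- skin and 9.88 in IMQ WT skin. Its untreated values were 8.64 in Card14-/-, 6.95 in Tlr7-/-Tlr9-/-, 10.79 in Tlr7-/-, 9.81 in Tlr9-/- and 8.58 in WT skin.

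Of the other cysteine-rich genes of chromosome 16, Krtap13-1 ranged from 4.69 in IMQ Tlr7-/-Tlr9-/- to 11.37 in untreated Tlr7-/- skin, Krtap14 from 5.23 in IMQ Tlr7-/- and untreated Tlr7-/-Tlr9-/- to 9.91 in IMQ Card14-/- skin, and Krtap15 from 3.00 in IMQ Tlr7-/- to 8.72 in untreated Tlr7-/- skin. Krtap15 also differed between the repeat arrays of IMQ Tlr7-/-Tlr9-/- skin, at 3.35 and 5.43. The dimmest members were Krtap24-1, at 5.82 or less, and Krtap27-1, which was above 4 only in IMQ Card14-/- skin (5.09 and 4.72), untreated Tlr7-/- skin (4.83) and untreated Tlr9-/- skin (4.17, not well above background).

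The glycine-tyrosine-rich genes all lie on chromosome 16. Krtap20-2 read 15.60 and 15.59 in IMQ Card14-/-, 10.93 and 11.09 in IMQ Tlr7-/-Tlr9-/-, 10.97 in IMQ Tlr7-/-, 13.21 in IMQ Tlr9-/- and 13.94 in IMQ WT skin. Untreated skin gave 12.75 in Card14-/-, 11.70 in Tlr7-/-Tlr9-/-, 14.92 in Tlr7-/-, 13.48 in Tlr9-/- and 12.06 in WT. Krtap6-5, Krtap8-1 and Krtap22-2 had the same highest group, IMQ Card14-/- skin, at 12.42, 13.04 and 14.21, and the same lowest, IMQ Tlr7-/- skin, at 7.71, 7.90 and 9.36. Krtap7-1 spanned 3.35 in IMQ Tlr7-/- to 8.48 in IMQ Card14-/- skin. The untested Krtap21-1 read 12.87 and 12.77 in IMQ Card14-/- skin, 7.96 on the second IMQ Tlr7-/-Tlr9-/- array, 7.96 in IMQ Tlr7-/-, 11.28 in IMQ Tlr9-/- and 10.84 in IMQ WT skin, against 8.87 to 12.43 in untreated skin.

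Subfamily 19 is the largest of this class, and its members code for very small proteins. Krtap19-4 read 13.39 and 13.33 in IMQ Card14-/-, 13.50 and 13.42 in IMQ Tlr7-/-Tlr9-/-, 13.55 in IMQ Tlr7-/-, 14.05 in IMQ Tlr9-/- and 14.01 in IMQ WT skin. Without cream it read 12.40 in Card14-/-, 11.59 in Tlr7-/-Tlr9-/-, 12.70 in Tlr7-/-, 12.52 in Tlr9-/- and 11.55 in WT skin. All 7 IMQ values lay above all 5 untreated values, with no overlap. The share of all genes with this order on all 7 IMQ arrays was not counted. Taken by single genotype, 20% to 27.9% of all genes lay above all 5 untreated arrays after IMQ. Krtap19-9b read 12.09 and 12.16 in IMQ Card14-/-, 10.10 and 10.16 in IMQ Tlr7-/-Tlr9-/-, 8.68 in IMQ Tlr7-/-, 11.13 in IMQ Tlr9-/- and 11.02 in IMQ WT skin, and 8.95 in untreated Card14-/-, 7.80 in Tlr7-/-Tlr9-/-, 11.48 in Tlr7-/-, 10.49 in Tlr9-/- and 8.29 in WT skin. Here only Tlr7-/- skin had the IMQ value below the untreated one. Krtap16-3, whose probe shares 25 bases with that of Krtap19-2, read 13.54 and 13.64 in IMQ Card14-/-, 11.26 and 11.33 in IMQ Tlr7-/-Tlr9-/-, 9.89 in IMQ Tlr7-/-, 12.99 in IMQ Tlr9-/- and 12.27 in IMQ WT skin, against 9.73 to 13.81 in untreated skin.

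Signals of different probes are not on 1 scale, so the gap between the classes was compared between arrays and not read as a level. The median of the glycine-tyrosine-rich genes minus that of the cysteine-rich genes was 0.83 and 0.84 log2 units in IMQ Card14-/- skin and 0.25 in untreated Card14-/- skin. In Tlr7-/-Tlr9-/- skin it was 4.00 and 4.15 after IMQ and 0.78 without. It was 1.82 after IMQ and 0.39 without in Tlr7-/- skin, 1.76 and 0.81 in Tlr9-/- skin, and 0.64 and -0.15 in WT skin. The gap was wider on all 7 IMQ arrays than on the untreated array of the same genotype, and widest in IMQ Tlr7-/-Tlr9-/- skin, where the cysteine-rich median was 6.09 and 6.00 and the glycine-tyrosine-rich median 10.10 and 10.16. On chromosome 16 alone, the 7 cysteine-rich genes had a median of 3.35, which is below background, and 5.35 on these arrays and 5.23 in untreated skin of that genotype, and the glycine-tyrosine-rich genes one of 10.10 and 10.16 against 8.67. In Tlr7-/-Tlr9-/- skin the rise of the glycine-tyrosine-rich median went with the subfamily 19 genes, which all rose after IMQ. No other glycine-tyrosine-rich gene rose there by more than 0.38 log2 units, and most of them were lower than in untreated skin. The gap was not tested, because the classes were compared after the values were known.

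**Figure D2:**
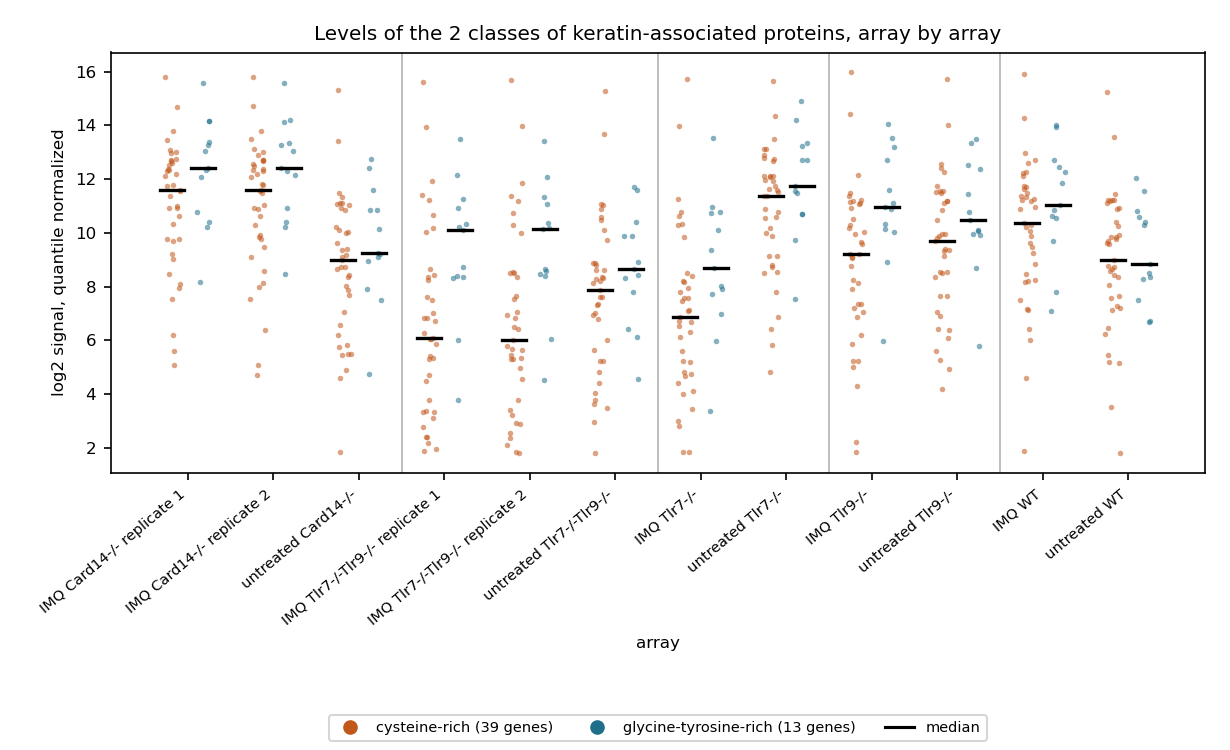
Log2 signal (vertical axis, quantile normalized) of the 39 cysteine-rich and 13 glycine-tyrosine-rich genes on each of the 12 arrays, 1 point a gene, with the median of each class as a bar. In IMQ Tlr7-/-Tlr9-/- skin the class medians stand 4.00 and 4.15 apart, against 0.78 in untreated skin of that genotype.

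The response of each genotype to IMQ was IMQ minus untreated in 1 limma model with a mean for each of the 10 groups, and its spread was estimated from the 2 pairs of repeat arrays, with 2 residual degrees of freedom. Groups with 1 array are taken to have that same spread. A gene was called at a limma adjusted p under 0.05, with Benjamini-Hochberg adjustment over all 24080 genes, and a log2 difference of at least 1. Where a gene was below background on one side, the difference is given as a fold that is at least as large as stated, set against the lowest signal well above background. The log2 value printed beside such a bound is the fitted one and not a measured size.

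In Card14-/- skin 45 of the 53 genes rose after IMQ and none fell, against 3.07% of all genes called higher and 1.34% called lower. The median of the family was 2.55 log2 units (-0.22 to 3.89), and that of all genes -0.03. The largest differences were those of Krtap31-2 (3.89 ± 0.50 (SE), limma adjusted p = 0.0273), Krtap7-1 (3.60 ± 0.38, limma adjusted p = 0.0218) and Krtap1-3 (3.57 ± 0.11, limma adjusted p = 0.00688). Of the classes, 32 of 39 cysteine-rich genes (median 2.43) and 12 of 13 glycine-tyrosine-rich genes (median 2.85) rose, as did Krtap16-3. The 8 genes not called were Krtap5-5, at -0.22, and Krtap10-4, Krtap4-6, Krtap10-10, Krtap24-1, Krtap16-1, Krtap19-4 and Krtap15, at 0.45 to 2.35. The calls rest on both repeat arrays: without either IMQ Card14-/- array 1 residual degree of freedom is left and 0 of the 53 are called, and without either IMQ Tlr7-/-Tlr9-/- array 38 are.

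In Tlr7-/-Tlr9-/- skin the family split. After IMQ 7 genes rose (3.92% of all genes were called higher), namely the 6 of subfamily 19 and Krtap16-3, led by Krtap19-9b (2.32 ± 0.06, limma adjusted p = 0.00854), Krtap19-3 (2.25 ± 0.04, limma adjusted p = 0.00656) and Krtap19-4 (1.87 ± 0.06, limma adjusted p = 0.00916). A second Krtap19-2 probe, with no shared stretch, gave 3.06 in this genotype, against 1.73 for the tested probe. The 15 genes called lower (2.24% of all genes were) were all cysteine-rich. The largest fitted differences were those of Krtap28-13 (-4.94 ± 0.08, limma adjusted p = 0.00656, at least 15.6-fold lower), Krtap26-1 (-4.51 ± 0.47, limma adjusted p = 0.0166, at least 6.54-fold lower) and Krtap4-9 (-3.37 ± 0.52, limma adjusted p = 0.0271). Krtap17-1 and Krtap5-1 fell by 3.31 and 3.11 on the log2 scale, and Krtap12-1, below background after IMQ, was at least 3.4-fold lower. A second Krtap5-1 probe gave -1.91. Krtap28-10 was called, but its bound is under 1 and it gets no fold. The other 31 were not called, among them the 5 tested members of subfamilies 6, 7 and 8 and both subfamily 10 genes. The class medians were -0.58 for cysteine-rich and 0.38 for glycine-tyrosine-rich genes, with -0.04 for all genes. With any 1 of the 4 repeat arrays left out, 0 of the 53 were called in either direction. With genes well above background on all 12 arrays alone, 8 were called lower.

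In Tlr7-/- skin 46 of the 53 genes fell and none rose, against 3.64% of all genes called lower and 3.91% called higher. The median was -3.92 (-6.69 to 0.85), and that of all genes -0.06. Krtap26-1 fell most (-6.69 ± 0.54, limma adjusted p = 0.0125), at least 101-fold, followed by Krtap28-13 (-5.98 ± 0.09, limma adjusted p = 0.00203) and Krtap28-10 (-5.95, limma adjusted p = 0.00853, at least 12.7-fold lower). Among the classes 34 of 39 cysteine-rich (median -4.32) and 11 of 13 glycine-tyrosine-rich genes (median -3.71) fell, as did Krtap16-3. Krtap10-10, Krtap3-2, Krtap19-5, Krtap5-5 and Krtap4-13, at -0.98 to -0.37, Krtap4-6, at 0.08, and Krtap19-4, at 0.85, were not called. Without either IMQ Tlr7-/-Tlr9-/- array 44 were called lower, and without either IMQ Card14-/- array 15. The comparison rests on 1 pool a side, and untreated Tlr7-/- skin had a median of 2.32 above the median of the other 4 untreated arrays, higher in 53 of 53 genes, while IMQ Tlr7-/- skin stood 1.43 below them. Over all genes the same medians were -0.02 for untreated and -0.09 for IMQ Tlr7-/- skin.

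In Tlr9-/- skin Krtap19-4 rose (1.52 ± 0.07, limma adjusted p = 0.00792; 5.11% of all genes were called higher). There 10 cysteine-rich genes were called lower, where 3.94% of all genes were, with Krtap26-1 (-2.95 ± 0.54, limma adjusted p = 0.0327), Krtap28-10 (-2.59 ± 0.32, limma adjusted p = 0.0179) and Krtap17-1 (-2.13 ± 0.05, limma adjusted p = 0.00591) in front. Krtap12-1, Krtap28-13 and Krtap5-1 to Krtap5-4 were 6 of the others. The last was Krtap27-1, below background on both Tlr9-/- arrays, so that it has no measured difference. No glycine-tyrosine-rich gene was called lower. The family median was -0.11, the same as for all genes. Without either IMQ Card14-/- array 0 of the 53 were called, and without either IMQ Tlr7-/-Tlr9-/- array 1 was called higher and 10 lower. With genes well above background on all 12 arrays alone, 5 were called lower.

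In WT skin 34 of the 53 genes rose and none fell (7.72% of all genes were called higher and 6.72% lower). The median was 1.42 (-0.34 to 2.73), and that of all genes -0.15. Subfamily 19 led, with Krtap19-9b (2.73 ± 0.07, limma adjusted p = 0.00356), Krtap19-4 (2.46 ± 0.07, limma adjusted p = 0.00361) and Krtap19-3 (2.22 ± 0.05, limma adjusted p = 0.00307). Of the glycine-tyrosine-rich genes 12 of 13 rose (median 1.98), and of the cysteine-rich 21 of 39 (median 1.33). The lowest of the 19 not called were Krtap10-4 (-0.34) and Krtap5-5 (-0.18). Without either IMQ Card14-/- array 30 were called, and without either IMQ Tlr7-/-Tlr9-/- array 40.

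Beside the test, the IMQ values were set against the range of the 5 untreated arrays, whose ends are mostly the untreated Tlr7-/- pool, highest in 51 genes, and the untreated Tlr7-/-Tlr9-/- pool, lowest in 49. Both IMQ Card14-/- arrays were above it in 35 of the 53 genes (20% of all genes were above) and below it in none (27.1% of all genes were below). Both IMQ Tlr7-/-Tlr9-/- arrays were above it in 1 gene, Krtap19-4 (24.4% of all genes were above), and below it in 28 (27.7% of all genes were below). IMQ Tlr7-/- skin was above it in Krtap19-4 and Krtap4-6 (26.7% of all genes were above) and below it in 38 (39.6% of all genes were below). IMQ Tlr9-/- skin was above it in 5 genes and below it in Krtap24-1, Krtap26-1 and Krtap4-9 (27.4% and 42.8% of all genes). IMQ WT skin was above it in Krtap19-4 and Krtap4-6 and below it in Krtap10-4 (27.9% and 45.5% of all genes). The WT rise therefore stayed within the untreated range of the other genotypes for nearly all members.

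**Figure D3:**
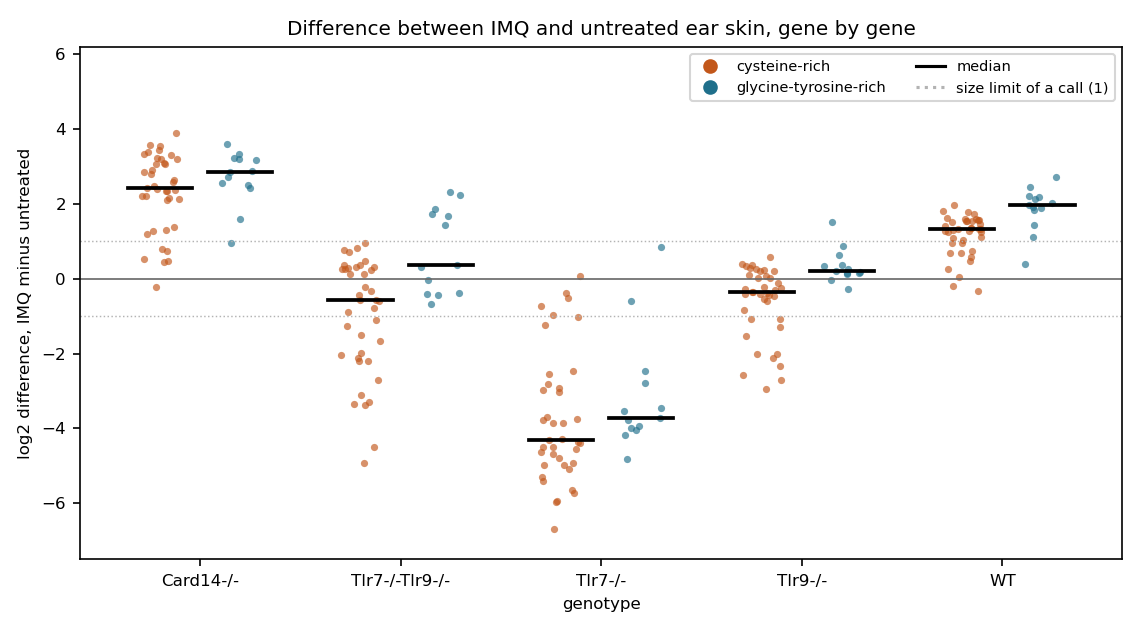
Log2 difference, IMQ minus untreated, of the 39 cysteine-rich and 13 glycine-tyrosine-rich genes (points) in each genotype, with class medians as bars and dotted lines at a difference of 1. The Card14-/- and WT points lie mostly above 0, the Tlr7-/- points mostly below, and the Tlr7-/-Tlr9-/- points spread from -4.94 to 2.32. The highest Tlr7-/-Tlr9-/- points are glycine-tyrosine-rich, and the other glycine-tyrosine-rich genes lie among the cysteine-rich ones.

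The responses of the knockouts were then set against that of WT skin by the difference of differences. Since the 4 comparisons share the WT arrays, their values are given side by side only. For Card14-/- minus WT, 22 genes were higher (5.14% of all genes) and 1, Krtap19-4, was lower (-1.50 ± 0.10, limma adjusted p = 0.0140; 5.34% of all genes). Krtap7-1 (3.21 ± 0.58, limma adjusted p = 0.0389) and Krtap1-3 (2.88 ± 0.17, limma adjusted p = 0.0134) led the genes above background on all arrays compared, and the family median was 1.09. Krtap27-1 was called too, but was below background on 3 of the 5 arrays and has no measured size. For Tlr7-/-Tlr9-/- minus WT, 30 genes were lower (5.6% of all genes) and 1, Krtap5-5, was higher (1.15 ± 0.15, limma adjusted p = 0.0267; 4.61% of all genes), and the median was -1.68. Krtap5-1 (-4.92 ± 0.14, limma adjusted p = 0.0111) was the lowest of those above background on all arrays compared. Krtap28-13 (limma adjusted p = 0.00835) and Krtap26-1 (limma adjusted p = 0.0244) had lower fitted values, but both were below background on the IMQ Tlr7-/-Tlr9-/- arrays and their size was not measured. For Tlr7-/- minus WT, 41 were lower and none higher (2.25% and 1.22% of all genes), with a median of -5.60. For Tlr9-/- minus WT, 20 were lower and none higher (0.785% and 0.282% of all genes), with a median of -1.55 and Krtap28-13 at -3.78 (limma adjusted p = 0.0215). This count was 9 with 75th percentile scaling and 34 with normexp background correction. With any repeat array left out 0 genes were called in 3 of these comparisons, and in Tlr7-/- minus WT 40 were called without either IMQ Tlr7-/-Tlr9-/- array and 0 without either IMQ Card14-/- array. The Card14-/- and Tlr7-/-Tlr9-/- differences also cross the slides, which cannot be told apart from genotype here.

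IMQ Card14-/- against IMQ Tlr7-/-Tlr9-/- skin is the only comparison with repeat arrays on both sides, and all 4 arrays were on 1 slide. Here 42 of the 53 genes were higher in IMQ Card14-/- skin and none was lower, against 1.21% of all genes called higher and 0.237% called lower. The median was 4.03 log2 units (-0.10 to 8.81). Krtap28-13 was higher by 8.81 ± 0.06 (limma adjusted p = 0.000572, at least 230-fold), Krtap26-1 by 8.58 ± 0.38 (limma adjusted p = 0.0122, at least 110-fold) and Krtap12-1 by 7.66 ± 0.09 (limma adjusted p = 0.000844, at least 67.5-fold). Krtap17-1, which was above background on all 4 arrays, was higher by 7.0 ± 0.04 (limma adjusted p = 0.000572).

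Of the classes, 30 of 39 cysteine-rich genes (median 4.64), 11 of 13 glycine-tyrosine-rich genes (median 3.63) and Krtap16-3 (2.29 ± 0.06, limma adjusted p = 0.0048) were higher in IMQ Card14-/- skin. The smallest called differences were those of Krtap19-1 (1.96), Krtap19-9b (2.00) and Krtap19-2 (2.02). A second Krtap19-2 probe, with no shared stretch, gave 1.11. Of the 11 genes not called, Krtap19-4 stood at -0.10 ± 0.05 (limma adjusted p = 0.327), Krtap5-5 at -0.07 and Krtap4-6 at 0.16. Krtap10-4, Krtap10-10, Krtap19-5, Krtap4-13, Krtap3-2 and Krtap16-1 were between 0.16 and 0.78. Krtap24-1 (2.97, limma adjusted p = 0.072) and Krtap15 (3.72, limma adjusted p = 0.113) had large differences and wide spread. Without either IMQ Tlr7-/-Tlr9-/- array 39 genes were called, without IMQ Card14-/- replicate 1 there were 9, and without IMQ Card14-/- replicate 2 there were 0.

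**Figure D4:**
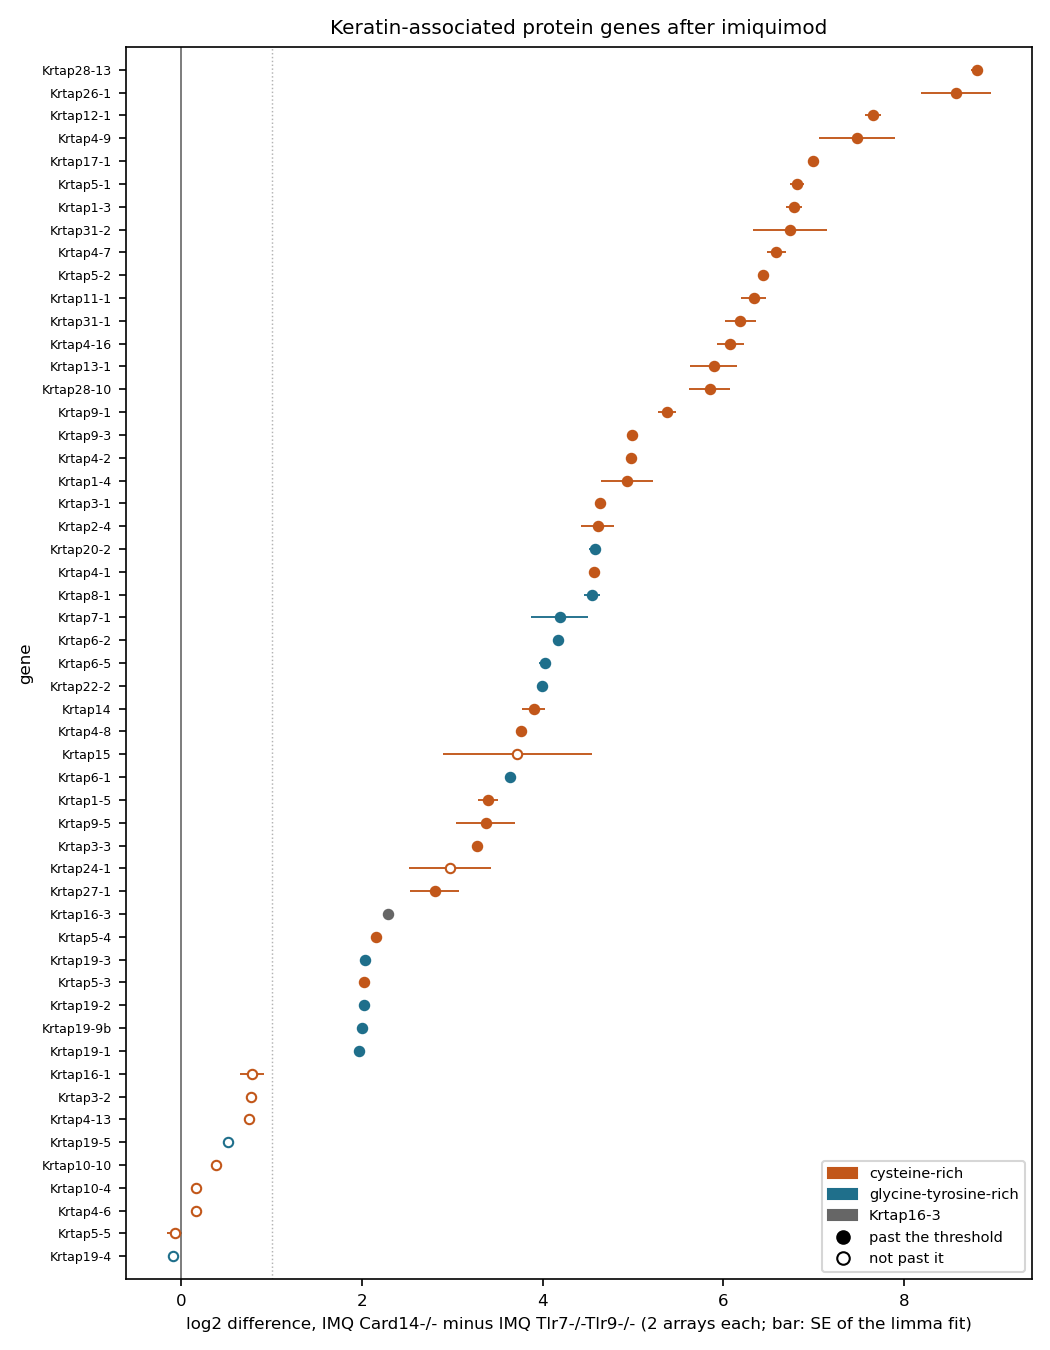
Log2 difference, IMQ Card14-/- minus IMQ Tlr7-/-Tlr9-/- skin, of each of the 53 genes with its standard error (2 arrays on each side), ordered by size and coloured by class, filled where called and open where not. Values run from -0.10 for Krtap19-4 to 8.81 for Krtap28-13.

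Over the 5 genotypes as pairs, with 4 residual degrees of freedom, 2 of the 53 genes changed on average after IMQ, both upward (10.4% of all genes were called higher and 16% lower at a limma adjusted p under 0.05). These calls are 3.77% of the family, a smaller share than that of all genes. Krtap19-4 rose by 1.53 ± 0.25 (limma adjusted p = 0.0140) and Krtap4-6 by 0.38 ± 0.10 (limma adjusted p = 0.0441), and these were the 2 genes with a positive difference in all 5 genotypes. The family median was -0.09, against -0.08 for all genes. Of the 53 genes 49 had positive differences in Card14-/- and WT skin and a negative one in Tlr7-/- skin. The share of all genes with these patterns of sign was not counted. Leaving out a genotype gave 0 to 3 genes called higher: 0 without Tlr9-/-, 3 without Tlr7-/-, and 1 without WT, Tlr7-/-Tlr9-/- or Card14-/-. The median was 0.84 without Tlr7-/- and -0.73 without Card14-/-. Krtap4-6 and Krtap19-4 were not both called with no filter or with the mean over all probes, where 1 gene was.

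When the responses of the 2 genotypes without Tlr7 were set against those of the other 3, the members had a median difference of -3.63, led by Krtap28-13 at -6.08 ± 1.38. None of the 53 was called by limma, and none of all genes either (0%), while 23 of the 53 and 755 of all genes had an unadjusted p under 0.05. The smallest limma adjusted p in the family was 0.999.

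RefSeq promoters of GRCm38.p6 were found by symbol for 48 of the 54 genes. The TATA box letters TATAAA stood on the gene's strand within the 100 bases before the start in 37 of 48, at a median of 31 bases before the start, and on either strand in 38 of 48 (79.2%), against 5.56% of 32851 promoters. In the whole 300 bases, from 250 before to 50 after the start, both strands, they stood in 39 of 48, 29 of 34 cysteine-rich and 9 of 13 glycine-tyrosine-rich genes, against 13.6% of all promoters. The 100 bases before the start are shown for Krtap28-13, with the largest difference between IMQ Card14-/- and IMQ Tlr7-/-Tlr9-/- skin, and for the 2 genes called in the average response, 5′ to 3′ on the gene's strand, with TATAAA in capitals.
Krtap28-13, chr1:83060830-83060929, plus strand: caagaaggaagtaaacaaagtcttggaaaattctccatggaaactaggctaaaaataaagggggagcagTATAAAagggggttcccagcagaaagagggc
Krtap4-6, chr11:99665961-99666060, minus strand: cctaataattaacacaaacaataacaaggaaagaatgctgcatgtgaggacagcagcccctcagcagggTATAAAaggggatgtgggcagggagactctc
Krtap19-4, chr16:88885090-88885189, minus strand, no match: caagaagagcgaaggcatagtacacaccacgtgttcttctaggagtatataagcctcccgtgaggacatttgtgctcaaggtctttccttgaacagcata
The Hox13-type letters TCGTAAA, searched on both strands of the 300 bases, stood in 1 of 48 promoters of the family (2.08%, against 0.597% of all). The TCF/LEF-type letters CTTTGAA stood in 9 of 48 (18.8%, against 5.14%). Krtap28-13, which ranged widely, and Krtap4-6, which was nearly flat, both carry TATAAA 31 bases before the start. Only the exact letters TATAAA were searched. The Krtap19-4 stretch holds the similar letters tatataag, as do the promoters of Krtap3-3, Krtap14, Krtap15, Krtap19-1, Krtap19-2 and Krtap19-3. A promoter without a match is therefore not shown to lack a TATA box.

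Other genes of the hair follicle were read as lists. Of 15 hair shaft keratins, the filament proteins that the family's products embed, 9 rose in Card14-/- skin (median 2.06), 10 fell in Tlr7-/-Tlr9-/- skin (median -1.70), 13 fell in Tlr7-/- skin (median -4.71), 4 fell in Tlr9-/- skin (median -0.58) and 6 rose in WT skin (median 1.15). In IMQ Card14-/- against IMQ Tlr7-/-Tlr9-/- skin 14 of 15 were higher (median 5.26), with Krt35 at 7.73 and Krt33b at 7.32 in front. The exception was Krt85, at -0.04. Hair shaft keratins and the family thus had medians of the same sign in Card14-/-, Tlr7-/-Tlr9-/-, Tlr7-/- and WT skin. The family median in Tlr7-/-Tlr9-/- skin was only -0.34, however, with 24 members positive and 29 negative. In Tlr9-/- skin the family median, -0.11, was that of all genes, with 25 members positive and 28 negative.

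The inner root sheath, which encloses the growing shaft and has keratins of its own, moved as well. Of its 9 tested genes 6 rose in Card14-/- skin (median 2.04), 7 fell in Tlr7-/-Tlr9-/- skin (median -2.63), 7 fell in Tlr7-/- skin (median -5.47), 6 fell in Tlr9-/- skin (median -2.98) and 4 rose in WT skin (median 1.17). Between IMQ Card14-/- and IMQ Tlr7-/-Tlr9-/- skin 7 were higher (median 6.78), Krt71 by 10.57 and Krt25 by 8.49. The summed linear signal of the list was 151316 and 152238 in IMQ Card14-/- and 82901 in untreated Card14-/- skin, 43324 and 44290 against 66943 in Tlr7-/-Tlr9-/-, 48151 against 167855 in Tlr7-/-, 54490 against 90881 in Tlr9-/- and 131894 against 79855 in WT skin. The brightest gene of this list read between 15.30 and 15.97 on every array, while the median of the list ran from 6.55 to 13.50. The sums therefore rest mostly on that brightest signal where the other genes are low. The part of follicle number or hair cycle phase in the values of the family was not tested.

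Hoxc13, a transcription factor that regulates keratin-associated protein genes in the mouse, read 9.18 and 9.18 in IMQ Card14-/-, 7.98 and 7.87 in IMQ Tlr7-/-Tlr9-/-, 7.69 in IMQ Tlr7-/-, 8.09 in IMQ Tlr9-/- and 8.31 in IMQ WT skin, against 8.18 to 8.93 in untreated skin. It was higher in IMQ Card14-/- than in IMQ Tlr7-/-Tlr9-/- skin by 1.25 ± 0.05 (limma adjusted p = 0.0112). Of 17 transcription factors and signals of the hair shaft 2 were higher in that comparison (median 0.14). Among 12 genes of cross-linking and matrix 5 were higher (median 0.82), with Padi3, a deiminase of the hair shaft and sheath, at 7.52.

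Lists of other cells and compartments had medians between -0.20 and 0.60 in the same comparison. There none of 8 interfollicular epidermis genes was called (median -0.04, 2 at an unadjusted p under 0.05), nor any of 11 cell cycle genes (median -0.20, 7), 9 sebaceous gland genes (median -0.10, 6), 10 fibroblast genes (median 0.23, 8), 11 melanocyte genes (median 0.60, 9) and 9 cartilage and muscle genes (median 0.00, 4), all by limma. Of 10 outer root sheath genes 1 was higher and 2 were lower (median -0.07). In the responses to IMQ some of these lists moved: 1 of 10 outer root sheath genes was lower in Card14-/-, 2 in Tlr7-/-Tlr9-/-, 5 in Tlr7-/- (median -0.82), 3 in Tlr9-/- and 3 in WT skin. Of 11 cell cycle genes none was called in Card14-/- or Tlr7-/-Tlr9-/- skin (6 and 9 at an unadjusted p under 0.05), and 2 were lower in Tlr7-/-, 3 in Tlr9-/- and 4 in WT skin (median -0.93). Of 11 melanocyte genes 7 were higher in Card14-/- minus WT (median 1.39). The part of these cells in the values of the family was not tested. Epidermal genes had a median of 14.62 to 15.52 on every array.

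**Figure D5:**
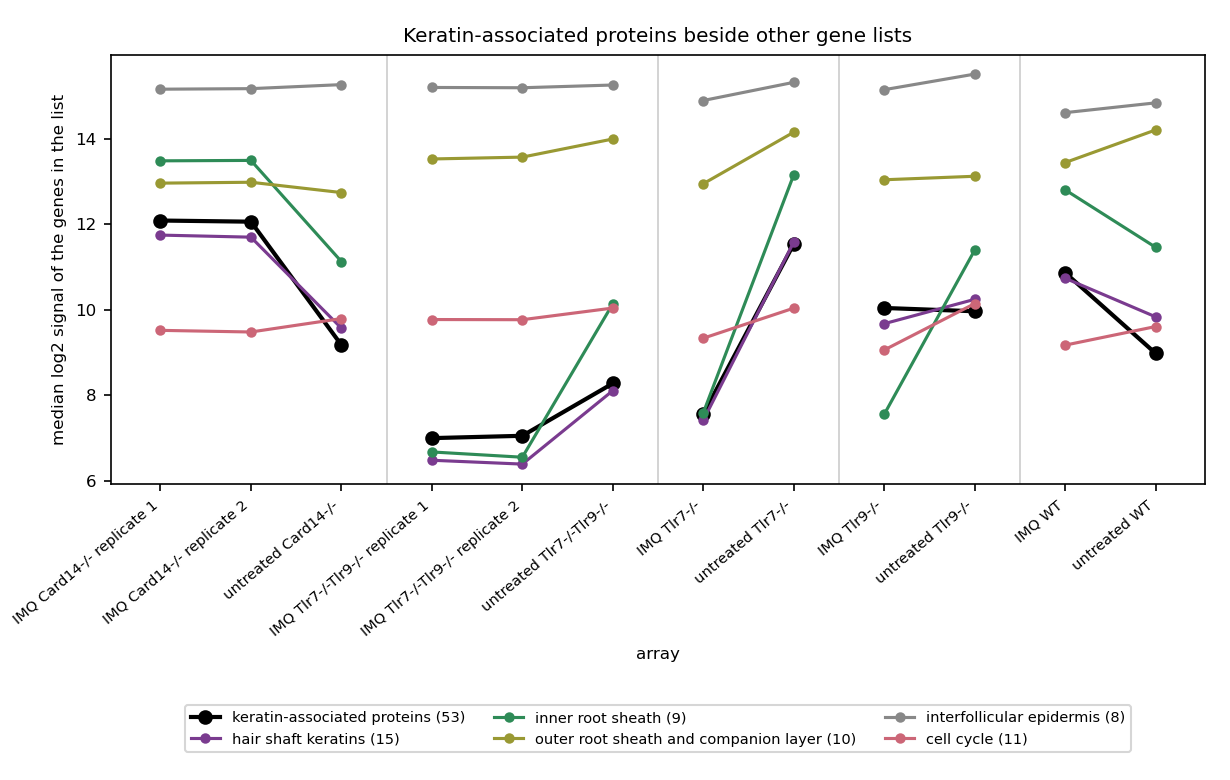
Median log2 signal of the 53 keratin-associated protein genes and of 5 other gene lists on each array, with lines joining arrays of 1 genotype and the number of tested genes in brackets. The medians of the keratin-associated proteins, hair shaft keratins and inner root sheath genes are higher after IMQ in Card14-/- and WT skin and lower in Tlr7-/-Tlr9-/- and Tlr7-/- skin. In Tlr9-/- skin the inner root sheath is at 7.56 after IMQ and 11.40 without, and the family at 10.05 and 9.97, while the epidermal median stays between 14.62 and 15.52.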

How the data were processed

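Scanner files of 12 single-colour 60-mer arrays were used, 200 ng of pooled RNA each. Per the file headers, Agilent Feature Extraction 10.7.3.1 subtracted background and detrended each array on its own to give the processed signal, an intensity (10.5.1.1 in the submitters' processing notes). The authors also deposited a table of log2 values, per the labels background-subtracted and normalized with limma, used only as an alternative. Its column medians are 6.37 to 6.38.

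Processed signals were set on the log2 scale and quantile normalized over 56605 probes. Probes with an outlier mark (235) and probes well above background on fewer than 2 arrays were left out, which kept 37125. The probe with the highest mean stood for each gene. Differences were fitted with limma 3.58.1 in R 4.3.3 and adjusted over 24080 genes by Benjamini-Hochberg. Tests were checked on simulated data in which every array varied like the repeat arrays. Spread between pools or slides was not simulated, so the check does not cover it. Where a gene was below background, folds are bounds against the lowest signal well above background (log2 3.63 to 4.38). Python 3.11.15 with pandas 2.3.3 and matplotlib 3.10.9 made tables and figures.

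Classes follow the subfamily number, since no protein sequences were used here. Krtap16-3 departs from this: its number is that of a cysteine-rich group, but its probe is rich in glycine codons, and it was placed in neither class after its probe was read. The members, classes and gene lists were chosen with earlier results of these data known. Genes were named by rule: for every subfamily the member with the highest mean, for each comparison the 3 largest differences in each direction, the members beside the filter, and for each list the 2 largest. Others were named as part of a range or count after their values were seen. Precision is limited by the number of arrays. Alternatives were the scaling, background correction, filter, choice of probe, slide block, replicate block, deposited table and leaving out each of the 4 repeat arrays or, for the average response, each genotype. Same-numbered repeat arrays deviated with a correlation of 0.058, so the numbers were not taken as pairing.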

Additional observations from a re-analysis of the deposited data

Results flagged for a closer look

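The response to IMQ differed from that of WT skin by a test of the difference itself in each knockout. In Card14-/- minus WT 22 of the 53 genes were called higher (5.14% of all genes) and 1 lower, Krtap19-4 (5.34%). In Tlr7-/-Tlr9-/- minus WT 1 was called higher, Krtap5-5 (4.61%), and 30 lower (5.6%). In Tlr7-/- minus WT 41 were called lower (2.25%), and in Tlr9-/- minus WT 20 (0.785%). The single calls of Krtap19-4 and Krtap5-5 are a smaller share of the family than such calls are of all genes. All 4 rest on the same pair of WT arrays and on 1 untreated pool a genotype. Relative to the median of the other 4 untreated arrays, the family stood at -0.44 in untreated Card14-/-, -1.58 in Tlr7-/-Tlr9-/-, 2.32 in Tlr7-/-, 0.89 in Tlr9-/- and -0.39 in WT skin, and the knockout's own offset enters its difference with the opposite sign, that of WT with the same sign.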

How the results depend on the processing

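No called value changed direction under any alternative run. Leaving out each of the 4 repeat arrays in turn gave, for members called higher, 0 to 39 in IMQ Card14-/- against IMQ Tlr7-/-Tlr9-/- skin, 0 to 38 in the Card14-/- response, 0 to 1 in Tlr9-/- and 30 to 40 in WT. For members called lower it gave 15 to 44 in Tlr7-/-, 0 to 10 in Tlr9-/- and 0 to 40 in Tlr7-/- minus WT. It gave 0 in either direction in Tlr7-/-Tlr9-/- and in the other differences from WT, and leaving out each genotype gave 0 to 3 higher in the average response. The average response had 1 member called higher with no filter, with the mean over all probes or with the slide 1 genotypes only, and 1 called lower with the slide as a block. With genes well above background on all 12 arrays, which tests fewer genes, 5 were lower in Tlr9-/- and 8 in Tlr7-/-Tlr9-/- skin. Tlr9-/- minus WT had 9 lower with 75th percentile scaling and 34 with normexp, and Tlr7-/-Tlr9-/- minus WT 0 higher with normexp; the cause was not tested. With the replicate block 26 members were higher in IMQ Card14-/- against IMQ Tlr7-/-Tlr9-/- skin. Among the other results 92 recalculations lost a call, 9 gained one, 59 moved a median or a count and 740 did none of these. With Krtap16-3 counted as glycine-tyrosine-rich, a choice made after seeing the data, the class median in Tlr7-/-Tlr9-/- skin was 0.90. Members below background, up to 12 an array, have bounds only.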

Other observations

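On the array 7 probes are described as keratin-associated under another gene name and stood outside the rule. Gm41515, whose probe shares 26 bases with that of Krtap19-2, read 13.87 and 13.90 in IMQ Card14-/-, 11.67 and 11.57 in IMQ Tlr7-/-Tlr9-/- and 10.57 in IMQ Tlr7-/- skin. Gm39115 read 12.58 and 12.45 in IMQ Card14-/- and 5.68 and 5.57 in IMQ Tlr7-/-Tlr9-/- skin, a range like that of Krtap5-1. Gm38522 stayed between 5.24 and 6.16 on all 12 arrays.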
